A study of Mus musculus with 48 samples.

Results

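The heat shock chaperones described here are 9 mouse genes, taken by gene symbol from the 48709 genes of the count files: Hspa1a, Hspa1b, Hsp90aa1, Hspb1, Dnajb1, Hspa8, Hsph1, Hspa5 and Bag3. Chaperones bind unfolded or newly made proteins and keep them from aggregating. When cytosolic proteins misfold, the transcription factor HSF1 is released from its chaperone partners, forms trimers and binds heat shock elements in the promoters of Hspa1a, Hspa1b, Hspb1, Dnajb1, Hsph1 and Bag3, whose transcription then rises. Misfolding in the endoplasmic reticulum (ER) acts through other sensors and raises Hspa5, the ER member of the HSP70 family, together with ER foldases. Neurons keep much of their folding capacity as constitutive chaperones such as Hspa8.

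RNA sequencing of brain tissue from male C57BL/6J mice gave 48 libraries of 46 mice in 8 groups. In the first experiment the dentate gyrus of 5 wild-type and 5 Fmn2 knockout (Fmn2-/-) mice of 3 months and of 3 wild-type and 5 Fmn2-/- mice of 8 months was sequenced; Fmn2 encodes formin 2, an actin nucleator. In the second, Fmn2 mice were crossed with APPPS1-21 mice, which develop amyloid deposits from transgenes under the neuronal Thy1 promoter, and 7 mice labelled FMN2-/-_APP and 9 labelled FMN2 +/+ APP, all of 3 months, were sequenced, with repeat runs of 1 mouse in each group summed. In the third, 6 mice labelled APP and 6 wild-type mice of 4 months were sequenced, for which the titles say prefrontal cortex and the tissue field says dentate gyrus. Every group of the cross carried the transgenes, so the cross holds no amyloid-free control of its own.

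The labels were checked against Fmn2 and region markers. Fmn2 stood at 77.2 to 109 CPM (counts scaled to the size of each library, TMM over all mice) in the wild-type mice of the first experiment and at 21.6 to 28.2 in its knockout mice. In the cross it stood at 83.3 to 101.8 in the mice labelled FMN2-/-_APP and at 18.9 to 23.4 in those labelled FMN2 +/+ APP, which goes against both labels, so these groups are called by their labels throughout and no direction of an Fmn2 effect is drawn from them. The granule cell gene Dsp had a median of 143 CPM in 3-month-old wild-type mice and 0.157 in the wild-type mice with cortex titles, which goes against the tissue field. Totals per mouse ran from 6818809 to 43921030 counts, and both ends belong to 8-month-old wild-type mice. The counts of 8-month-old Fmn2-/- replicates 2 and 3 differed less than repeat runs of the same mouse did (chi-square per degree of freedom 1.62 against 1.72 and 2.15), while other pairs within groups had 3.50 or more. They may be 1 mouse, and with both summed as 1 replicate the number of the 9 genes called was the same in the 3 comparisons that use them.

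RefSeq promoter sequences (GRCm38.p6, the 250 bases before each annotated start) were at hand for 7 of the 9 genes, not for Hsp90aa1 and Hspa8. They are shown because heat shock elements and the ER stress element are the best known control elements of chaperone genes. A heat shock element is built from GAA and TTC units in alternation, and the search was for 2 adjoining units with 2 bases between them (GAANNTTC or TTCNNGAA, each its own reverse complement). This motif was found in the promoters of Hspa1a, Hspa1b, Hspb1 and Hsph1, and in 12.8% of all 32851 promoters of the table. No promoter of the genes held 3 units in a row, a motif found in 0.466% of all promoters. In the promoter stretches below, written 5′ to 3′ with the motif in capitals, Hspa1a and Hspa1b share all 100 bases, and over the whole 250 bases they differ at 3.
Hspa1a (chr17:34972207-34972306, minus strand) and Hspa1b (chr17:34959289-34959388, minus strand): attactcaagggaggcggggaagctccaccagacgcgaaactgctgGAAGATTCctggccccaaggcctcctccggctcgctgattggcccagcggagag
Hspb1 (chr5:135887769-135887868, plus strand): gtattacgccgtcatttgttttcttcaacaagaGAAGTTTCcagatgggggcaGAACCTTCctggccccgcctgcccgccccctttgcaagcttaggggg
Hsph1 (chr5:149636351-149636380, minus strand): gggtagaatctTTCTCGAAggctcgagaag

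The Hspa5 promoter held the ER stress element, which is CCAAT, 9 bases of any kind and then CCACG on either strand, starting 65 bases before the start. This motif occurs in 0.113% of all promoters, and in none of the other promoters of the 9 genes. The promoters of Dnajb1 and Bag3 held neither motif, which says only that these letters are not in these windows. The element of Hspa5 is shown in capitals.
Hspa5 (chr2:34772020-34772049, plus strand): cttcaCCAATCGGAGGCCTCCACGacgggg

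Levels were compared between genes per kb of annotated exon. In 3-month-old wild-type mice Hspa5 was the highest at 65.1 ± 7.98 CPM per kb (SD, n = 5), followed by Hsph1 (HSP105, a nucleotide exchange factor of HSP70) at 52.9 ± 1.62 and Hsp90aa1 (the inducible cytosolic HSP90) at 51.8 ± 3.20, which lie within each other's spread. Hspa8 (HSC70, the constitutive HSP70) stood at 24.8 ± 1.76 and Dnajb1 (HSP40, which hands substrates to HSP70) at 13.3 ± 0.797 CPM per kb. Bag3, which couples HSP70 to autophagy, stood at 3.71 ± 0.629. The inducible HSP70 genes Hspa1b (1.28 ± 0.291) and Hspa1a (0.859 ± 0.249) and the small heat shock protein gene Hspb1 (0.825 ± 0.295) were the lowest, and the last pair lie within each other's spread. The 3 lowest genes rest on few reads, down to 16 counts in a mouse for Hspa1a, 31 for Hspa1b and 5 for Hspb1. The order is that of this group. In the mice labelled APP of 4 months Hspa8 was the highest, at 51.9 ± 5.26 CPM per kb (SD) with Hspa5 at 50.5 ± 3.41. Hspa5 was the highest in every other group. Several of these genes share near-identical sequence with others, as described below, and its part in this order was not tested.

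**Figure D1:**
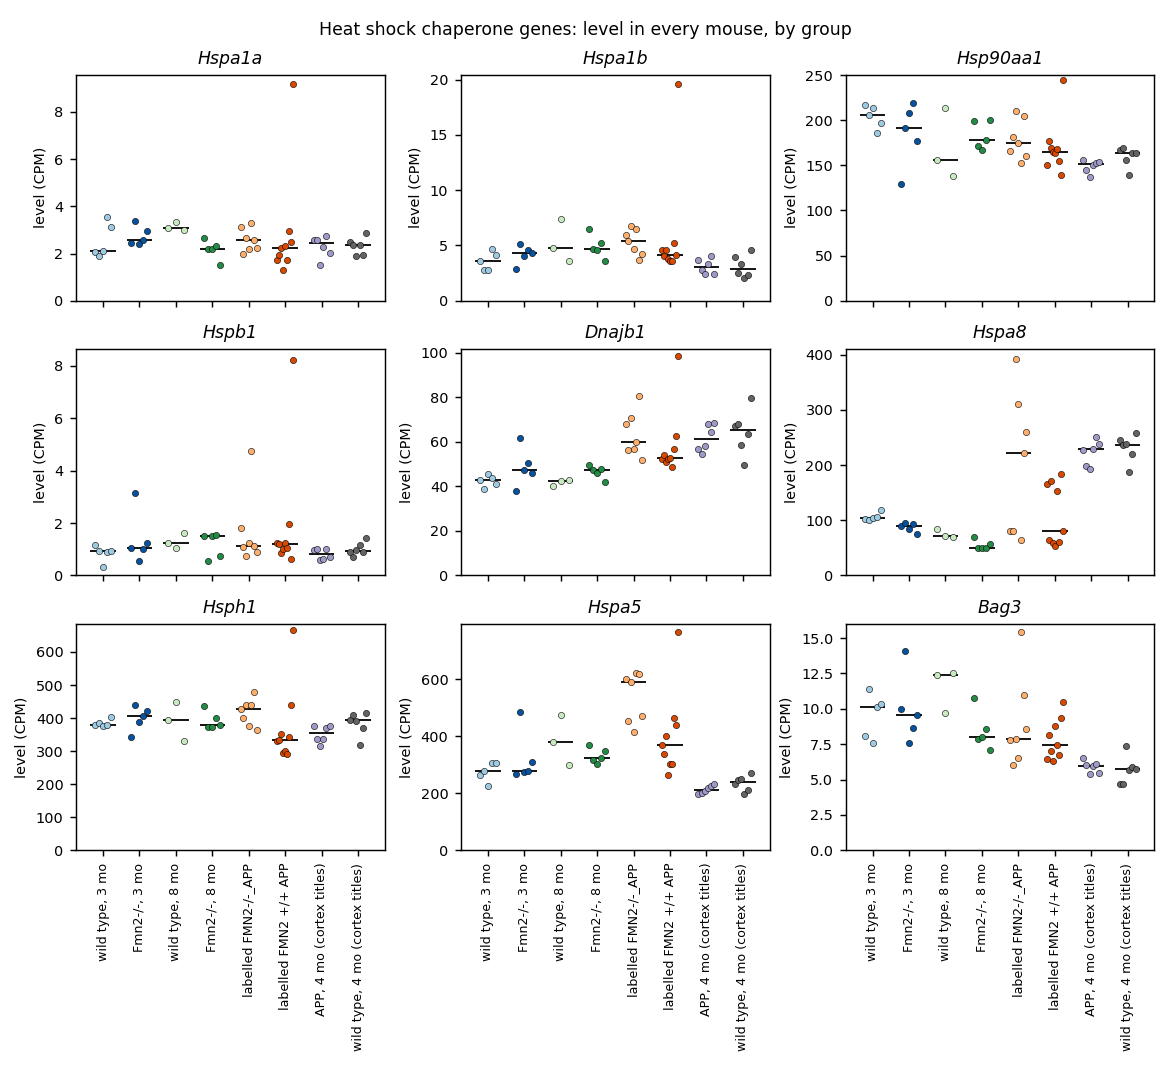
Level of each gene in every mouse (CPM, linear axis from 0, with its own scale in each panel); points are mice and bars are group medians. The mouse labelled FMN2 +/+ APP with 9.18 CPM of Hspa1a is also the highest of its group for Hspa1b, Hsp90aa1, Hspb1, Dnajb1, Hsph1, Hspa5 and Bag3, and Hspa8 spreads from 53.4 to 393 CPM within the amyloid cross.

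The counts of several of these genes are uncertain because other genes hold near-identical sequence. Matched over at least 300 bases at 97% identity or more, Hspa1a and Hspa1b shared 2201 bases at 99.2%, Hsp90aa1 matched 3 processed pseudogenes, Hspb1 matched 2 genes with at most 3 counts in a mouse, and Hspa8 matched 4 genes. No such gene was found for Dnajb1, Hsph1, Hspa5 or Bag3. How reads that match several genes were treated is not given in the sources used here.

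Hspa8 (chr9:40800984-40810087) was the gene most exposed to this. Its closest match with counts was the lincRNA gene Gm26825 (chr5:5781530-5783636, plus strand), with 1940 aligned bases at 99.6% identity in antisense orientation. The processed Hspa8 pseudogene Gm15459, which was at 0 counts in all mice, lies within Gm26825 on the other strand. The libraries do not mark strand, and whether reads there went uncounted was not tested. Such reads would also be missing from the sums of near-identical genes given below. In the 18 mice of the first experiment Hspa8 stood between 49.2 and 119 CPM and Gm26825 between 9.95 and 19.4. In the 12 mice with cortex titles Hspa8 stood between 187 and 258 CPM while Gm26825 did not pass 0.122.

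Within the cross the 2 genes went opposite ways from mouse to mouse. Among mice labelled FMN2-/-_APP, replicates 3, 4 and 5 had 393, 310 and 261 CPM of Hspa8 with 0.245, 0.120 and 0.161 of Gm26825. Replicate 7 had 221 of Hspa8 with 18.2 of Gm26825, and replicates 1, 2 and 6 had 81.4, 80.6 and 64.6 of Hspa8 with 39.6, 29.1 and 27.4 of Gm26825. Among mice labelled FMN2 +/+ APP, replicates 1, 5, 6 and 8 had 153 to 184 CPM of Hspa8 with 8.64 to 12.7 of Gm26825, and the other 5 had 53.4 to 80.98 of Hspa8 with 23.4 to 41.9 of Gm26825. The mice lie in separate clusters, so no correlation is given. Whether the differences in Hspa8 counts between these mice lie in Hspa8 transcripts or in the assignment of reads was not tested.

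**Figure D2:**
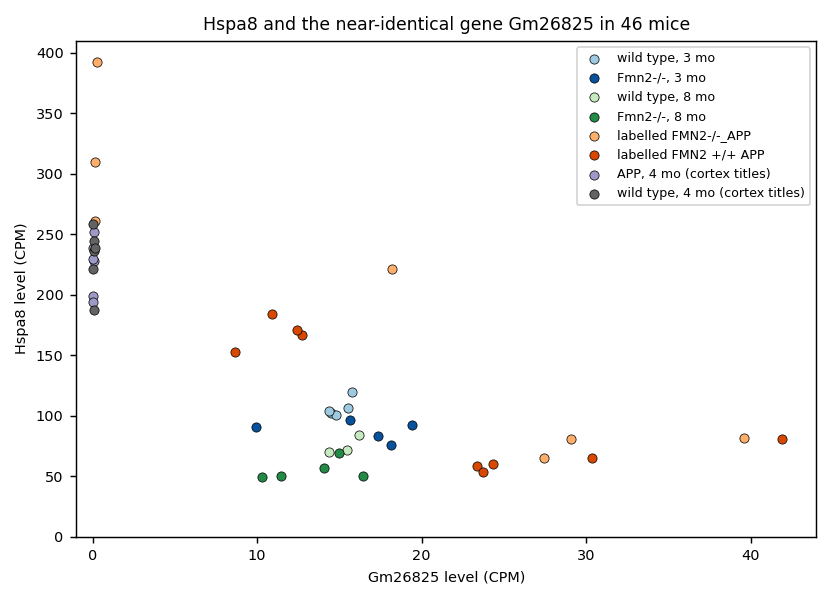
Level of Hspa8 against that of the near-identical gene Gm26825 in 46 mice (both in CPM, linear axes), coloured by group. Mice at 0.245 CPM of Gm26825 or less have 187 to 393 CPM of Hspa8, and the mice at 23.4 CPM or more of Gm26825 have 53.4 to 81.4.

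Fmn2 genotype was compared at each age with the quasi-likelihood test of edgeR, adjusted by Benjamini-Hochberg over all genes tested, and genes were called at an adjusted p under 0.05 with a log2 fold change past 0.25 in either direction. At 3 months 0 of the 9 genes were called, against 0.0301% of all genes. At an unadjusted p under 0.05 there was 1, Hspa8, against 1750 of all 16630 genes. DESeq2 called Hspa8, and 91 of all 16630 genes. Hspa8 stood at 102.04, 100.7, 103.9, 106.4 and 119 CPM in the wild-type mice and at 90.5, 96.0, 83.5, 92.6 and 76.0 in the Fmn2-/- mice. All knockout mice lay below all wild-type mice, and ranges did not overlap for 2.50% of all genes. The difference had a log2 fold change of -0.29 ± 0.070 (SE; adjusted p = 0.210 in edgeR and 0.0206 in DESeq2). Hspb1 had the largest change, 0.72 ± 0.44 (SE; adjusted p = 0.584 in edgeR), with replicate 2 at 3.16 CPM where the other knockout mice had 0.550 to 1.24. All wild-type mice of this age were sequenced on lane 5 and 4 of 5 knockout mice on lane 6.

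At 8 months 0 of the 9 genes were called between Fmn2-/- and wild-type mice, against 1.13% of all genes. At an unadjusted p under 0.05 there were 4 (Hspa1a, Dnajb1, Hspa8 and Bag3), against 3419 of all 14665 genes. DESeq2 called 1, Hspa8, against 733 of all 14665 genes. Hspa8 stood at 83.6, 71.5 and 69.7 CPM in the wild-type mice and at 69.3, 50.2, 49.2, 50.5 and 56.8 in the knockout mice, again without overlap, as in 10.1% of all genes (log2 fold change -0.44 ± 0.11 SE; adjusted p = 0.0608 in edgeR and 0.0132 in DESeq2). The ranges of Hspa1a did not overlap either. It stood at 3.09, 3.33 and 2.99 CPM in wild-type and at 2.67, 2.18, 2.20, 2.301 and 1.52 in knockout mice, with a log2 fold change of -0.51 ± 0.20 (SE; adjusted p = 0.167 in edgeR). Bag3 differed by -0.46 ± 0.15 (SE; adjusted p = 0.110 in edgeR), and its ranges overlapped, with 9.70 to 12.5 CPM in wild-type and 7.12 to 10.8 in knockout mice. Of the 41 other cytosolic chaperone genes 1 was called lower, Stub1, which encodes the ubiquitin ligase CHIP (-0.46, adjusted p = 0.0448 in edgeR), and of 10 mitochondrial chaperone genes 1 was called lower, the protease gene Clpp (-0.49, adjusted p = 0.0434). These calls rest on a fit without the lane. With lane as a covariate 1 of all genes was called lower in place of 129, and without wild-type replicate 1 there were 2. That replicate was the only mouse of this comparison on lane 6, so the lane term takes up this mouse alone. The fits are not separate checks and cannot tell lane from this mouse.

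Fold changes at 8 months went with base composition over all genes (Spearman's rho with GC content -0.444 over 14634 genes; at 3 months 0.328 over 16593). With a length and GC correction 0 of the 9 genes were called at 8 months, as without it, and 34 of all genes in place of 166. Whether Stub1 and Clpp were among these is not given here. With wild-type replicate 2 left out, the 8-month comparison called 3 of the genes, Hspa8 and Bag3 lower and Hsp90aa1 higher, while the count of all genes rose from 166 to 3087. Of the interaction between age and genotype 0 of the 9 genes were called, against 3.73% of all genes. With a length and GC correction 0 of the 9 genes were called for it, and 27 of all genes in place of 635. Hspa1a and Bag3 passed an unadjusted p of 0.05, as did 3910 of all 17046 genes. Hspa1a and Bag3 had interactions of -0.62 ± 0.29 and -0.53 ± 0.24 on the log2 scale (SE; adjusted p = 0.208 and 0.195 in edgeR), and DESeq2 called 0.

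Age was compared within each genotype. Hspa8 was lower at 8 than at 3 months in both, and was the only one of the 9 genes called in either comparison. In wild-type mice it was 1 of 9, against 5.98% of all genes, with a log2 fold change of -0.49 ± 0.080 (SE; adjusted p = 0.0112 in edgeR), and in Fmn2-/- mice 1 of 9, against 6.36% of all genes, with -0.66 ± 0.095 (SE; adjusted p = 0.00218 in edgeR). The values are those given above, and the ranges of the ages overlapped in neither genotype, as in 15.5% and 8.42% of all genes. Gm26825 stood at 14.4 to 15.7 CPM at 3 and 14.4 to 16.2 at 8 months in wild-type mice, and at 9.95 to 19.4 and 10.3 to 16.4 in Fmn2-/- mice. With the counts of Hspa8 and its near-identical genes summed, the log2 fold changes were -0.41 and -0.57 and both remained called (adjusted p = 0.0162 and 0.00291 in edgeR). In the fit blocked on replicate numbers, which leaves out 3-month-old mice without a same-numbered 8-month-old mouse, Hspa8 was not called in wild-type mice (adjusted p = 0.0581 in edgeR).

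Hspa5 stood at 263, 277, 225, 305 and 308 CPM in 3-month-old and at 381, 474 and 301 in 8-month-old wild-type mice, with a log2 fold change of 0.49 ± 0.14 (SE; adjusted p = 0.0569 in edgeR, 0.0144 in DESeq2). DESeq2 called 1719 of all 16325 genes in this comparison. Hspa5 was also called without 8-month-old replicate 3 (0.63), and Hsp90aa1 was called lower without replicate 2 (-0.46). In Fmn2-/- mice the change was 0.05 ± 0.14 (SE; adjusted p = 0.899 in edgeR), and the interaction of -0.44 ± 0.22 was not called (adjusted p = 0.235). Of 24 ER chaperone and unfolded protein response genes tested in wild-type mice, 4 were called higher and 0 lower with age, against 5.98% of all genes. They are Sdf2l1, a component of an ER chaperone complex (0.88, adjusted p = 0.0175 in edgeR), the disulphide isomerase genes Pdia6 (0.52, adjusted p = 0.0178) and P4hb (0.26, adjusted p = 0.0498), and Ddit3, which encodes the stress factor CHOP (0.34, adjusted p = 0.0321). The age changes of Sdf2l1 differed between genotypes (interaction -1.04, adjusted p = 0.0448 in edgeR), where 510 of all genes were called lower. But with lane as a covariate 0 of all genes were called lower for the interaction in edgeR (3717 in either direction at an unadjusted p under 0.05), and without 8-month-old wild-type replicate 1 there were 8. That replicate was the only 8-month-old mouse on lane 6, so lane and this mouse cannot be told apart at that age. With a length and GC correction 24 of all genes were called lower for the interaction. In Fmn2-/- mice 1 of 41 cytosolic chaperone genes was called higher with age and 4 lower, and the 4 of smallest p were Stub1 (-0.46, adjusted p = 0.00218 in edgeR), Dnajb6 (0.42, adjusted p = 0.00897), the small heat shock protein gene Hspb6 (-0.82, adjusted p = 0.0118) and Stip1, which joins HSP70 to HSP90 (-0.35, adjusted p = 0.0136). In wild-type mice 2 of 41 were called higher, the HSP90 cochaperone gene Ptges3 (0.63, adjusted p = 0.00379) and the HSP70 cochaperone gene Hspbp1 (0.45, adjusted p = 0.0116). Within each genotype the ages were sequenced on different lanes, and 4 of 10 immediate early genes were lower at 8 months in wild-type and 3 of 10 in Fmn2-/- mice (summed level 251 to 804 against 163 to 240 CPM in wild-type mice, none of the list at 0); their part in these results was not tested.

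In the cross, with the fold limit set at 0.5 on the log2 scale as for all amyloid and region comparisons, 0 of the 9 genes differed between mice labelled FMN2-/-_APP and FMN2 +/+ APP, against 0.774% of all genes. At an unadjusted p under 0.05 there were 2, Hspa8 and Hspa5, against 2772 of all 16656 genes, and DESeq2 called 0. Hspa5 ran from 415 to 622 CPM (median 591) in the mice labelled FMN2-/-_APP and from 265 to 766 (median 368) in those labelled FMN2 +/+ APP, a log2 fold change of 0.41 ± 0.18 (SE; adjusted p = 0.251 in edgeR). Replicate 9 of the second group was the mouse at 766, and without it the highest was 465.5 CPM, the change was 0.58 and Hspa5 was called (adjusted p = 0.0296 in edgeR), the only 1 of the 9 genes. Hspa8 ran from 64.6 to 393 CPM (median 221) and from 53.4 to 184 (median 80.98), and the change of 0.88 ± 0.39 (SE; adjusted p = 0.270 in edgeR) came with the clusters of mice described above. Of the ER list 1 of 24 genes was called, Pdia6, higher in the mice labelled FMN2-/-_APP (0.53, adjusted p = 0.0182 in edgeR). Hsf1 passed the adjusted p and not the fold limit (0.32, adjusted p = 0.0261).

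Replicate 9 of the mice labelled FMN2 +/+ APP held the highest level of 8 of the 9 genes in its group. Hspb1 was 8.24 CPM there and 0.640 to 1.96 in the other 8 mice, 7.32 times their median. Hspa1b stood at 19.6 CPM against 3.58 to 5.24 and Hspa1a at 9.18 against 1.31 to 2.94, or 4.81 and 4.40 times the median of the others. Hspa5 at 766, Hsph1 at 666 and Dnajb1 at 98.5 CPM were 2.17, 2.01 and 1.87 times the median, while Hspa8 at 80.98 was within the range of the others. The ER list summed to 3664 CPM against 2440 to 3028 in the others and the cytosolic chaperone list to 7277 against 5867 to 6382. The heat shock factor genes Hsf1, Hsf2, Hsf4 and Hsf5 summed to 79.3 CPM, within the 71.8 to 83.5 of the others. Of these, Hsf1 stood at 28.4 CPM against 30.5 to 38.6, while Hsf2 was the highest of the group. The 6 astrocyte markers also summed to the highest value of the group, 4283 CPM against 1948 to 3084, and those of dentate granule cells, cortical neurons and choroid plexus to the lowest, 740 against 881 to 1128, 205 against 244 to 295, and 44.5 against 54.3 or more. Single markers did not all follow these sums. Of the granule cell markers C1ql2 was the highest of the group in replicate 9 (91.3 CPM against 46.5 to 69.2), while Dsp (68.9) and Prox1 (213) were the lowest. Foxj1 of the choroid plexus list, at 4.79 CPM, was within the range of the others. The part of these cell types in the chaperone levels was not tested.

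**Figure D3:**
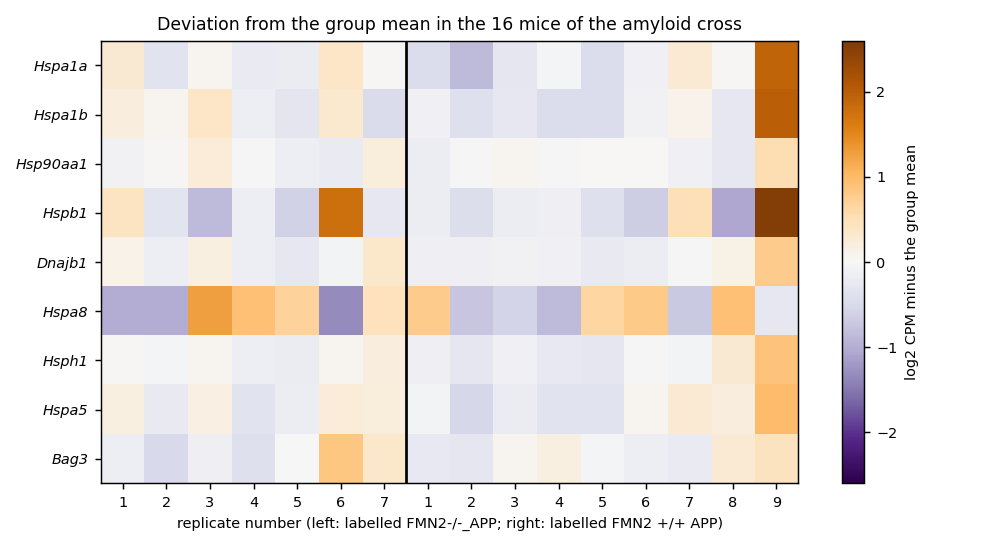
Deviation of each gene from its group mean (log2 CPM, colour) in the 16 mice of the cross, 1 column per mouse by replicate number. Replicate 9 of the mice labelled FMN2 +/+ APP is above the mean for 8 of 9 genes, by up to 2.54 for Hspb1, and the Hspa8 row varies apart from the others.

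In 2 other mice Hspb1 was the highest of its group, together with some marker sums. Replicate 6 of the mice labelled FMN2-/-_APP had 4.76 CPM of Hspb1 and 15.5 of Bag3, against 0.734 to 1.83 and 6.01 to 11.01 in the other 6 mice. Its 8 endothelial and mural markers summed to 311 CPM against 158 to 216, and its blood markers to 92.2 against at most 76.2. Its cytosolic and mitochondrial chaperone lists summed to the lowest of the group, 6343 CPM against 6398.5 to 7101 and 702 against 714 to 789. Its ER list was within the range of the others. Hsp90aa1 (153 CPM) and Hspa8 (64.6) were also the lowest of the group in this mouse, and Hspa5 (622) the highest by little. Replicate 2 of the 3-month-old Fmn2-/- mice had 3.16 CPM of Hspb1, 14.1 of Bag3 and 486 of Hspa5, against 0.550 to 1.24, 7.55 to 9.98 and 268 to 310, with a vessel marker sum of 368 CPM against 212 to 293. Its sums were also the highest for markers of blood (67.7 CPM against at most 47.4), astrocytes (2100 against at most 1972), microglia (326 against at most 291) and cortical neurons (334 against at most 297), for immediate early genes (589 against at most 411) and for the ER list (3537 against at most 2769). Hspa1a was the highest of its group in both mice, at 3.29 and 3.36 CPM, but by little. In bulk tissue more cells of a type and more RNA per cell cannot be told apart, and the part of these cell types in the chaperone levels was not tested.

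Amyloid mice were compared with wild-type mice of 4 months in the tissue with cortex titles. 0 of the 9 genes were called, against 2.34% of all genes, and DESeq2 called 0. At an unadjusted p under 0.05 there were 0, against 2396 of all 16733 genes. The largest fold change was that of Hspb1, -0.30 ± 0.21 (SE; adjusted p = 0.599 in edgeR), and those of the other 8 genes lay between -0.13 and 0.07. Hspa1a ran from 1.53 to 2.75 CPM (median 2.43) in the mice labelled APP and from 1.88 to 2.85 (median 2.36) in wild-type mice. Hspa5 ran from 197 to 234 CPM (median 212) and from 198 to 271 (median 239). Hsp90aa1 ran from 137 to 156 CPM (median 152) against 139 to 169 (median 163). The ranges overlapped for all 9 genes, where they did not overlap for only 3.17% of all genes. In the same comparison 5 of 6 microglia markers were called higher, with summed levels of 472 to 612 CPM against 294 to 317. Genotype and lane coincide here and cannot be told apart.

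**Figure D4:**
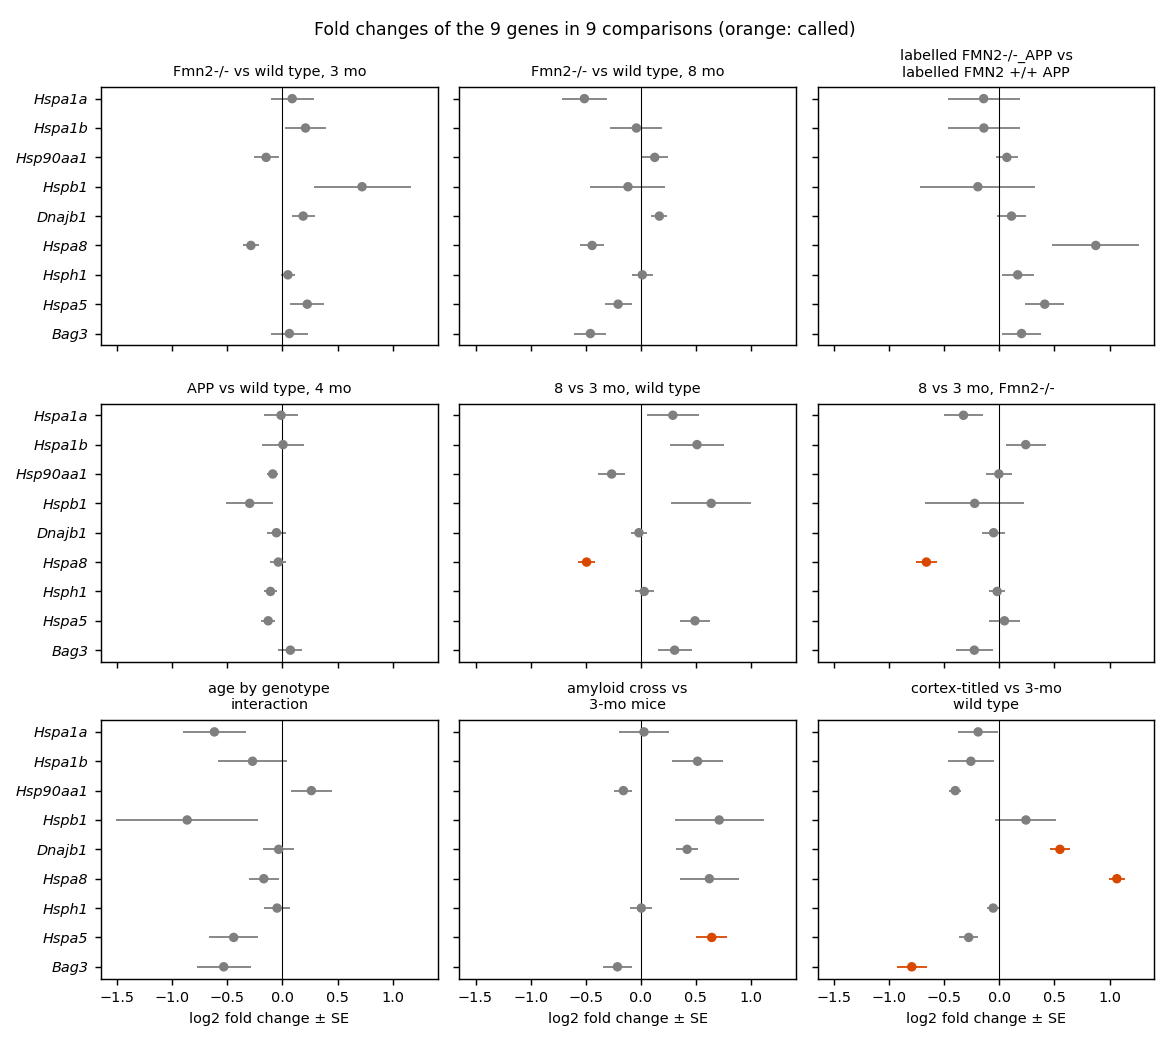
Log2 fold change ± SE of the 9 genes in each of 9 comparisons; called genes are orange. Hspa8 is called in both age comparisons and between regions, Hspa5 in the cross against 3-month-old mice, and Dnajb1 and Bag3 between regions.

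Both groups of the cross were set against the 3-month-old wild-type and Fmn2-/- mice, each mean weighted equally over Fmn2 levels. At an unadjusted p under 0.05 there were 4 of the 9 genes, against 9731 of all 17599 genes. Of the 9 genes 1 was called, Hspa5, higher in the cross, against 16.5% of all genes. It was higher by 0.64 ± 0.14 on the log2 scale (SE; adjusted p = 0.000403 in edgeR), with the 3-month-old mice at 225 to 308 CPM in wild type and 268 to 486 in Fmn2-/-, against the values of the cross given above. Dnajb1 passed the adjusted p and missed the fold limit (0.42 ± 0.099 SE; adjusted p = 0.000992 in edgeR). It stood at 43.0, 39.0, 45.8, 43.6 and 41.1 CPM in wild-type and 37.7, 61.5, 47.3, 50.7 and 46.1 in Fmn2-/- mice of 3 months, and at 51.9 to 80.6 (median 59.7) and 48.8 to 98.5 (median 52.9) in the mice labelled FMN2-/-_APP and FMN2 +/+ APP. Hspa8 and Hspa1b differed by 0.62 ± 0.27 and 0.51 ± 0.23 (SE; adjusted p = 0.0567 and 0.0693 in edgeR), and DESeq2 called both beside Hspa5, against 2924 of all 17599 genes. Hspb1 had the largest change of the 9 genes, 0.71, and was not called. Without replicate 9 Hspa5 remained the 1 gene called. The fit blocked on replicate numbers left out replicates 8 and 9 of the mice labelled FMN2 +/+ APP. In that fit the change of Hspa5 was 0.47 and under the fold limit, so that none was called there.

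Of 25 genes of the ER list 5 were called higher and 0 lower in the same comparison, in which 16.5% of all genes were called. The 4 of smallest p were Pdia6 (0.74, adjusted p = 5.38e-07 in edgeR), Xbp1, a transcription factor of the unfolded protein response (0.70, adjusted p = 3.52e-06), Creld2 (0.63, adjusted p = 6.52e-06) and the ER chaperone gene Hyou1 (0.53, adjusted p = 1.69e-05). Of 41 cytosolic chaperone genes 2 were called higher, Hspb8, a small heat shock protein that binds BAG3 (1.37, adjusted p = 6.92e-06 in edgeR), and the HSP40 gene Dnajb6 (0.55, adjusted p = 3.39e-09), and 1 lower, the small heat shock protein gene Hspb6 (-0.74, adjusted p = 0.000191). Hsf1 passed the adjusted p and not the fold limit (0.23, adjusted p = 0.00254 in edgeR). Experiment and amyloid transgene coincide and cannot be told apart. Of other lists, 9 of 10 immediate early genes were lower (summed level 251 to 804 CPM in the 3-month-old wild-type and 267 to 589 in the Fmn2-/- mice, 131 to 260 and 104.7 to 363 in the cross), and 4 of 6 oligodendrocyte markers were lower, with no gene of either list at 0; their part was not tested.

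Wild-type mice of 4 months with cortex titles differed most from the 3-month-old wild-type dentate gyrus, where experiment, age and region cannot be told apart. Of the 9 genes 3 were called, against 45.1% of all genes, and DESeq2 called 3, against 7432 of all 16661 genes. At an unadjusted p under 0.05 there were 5, against 12726 of all 16661 genes. Dnajb1 was higher in the mice with cortex titles, at 49.4 to 79.8 CPM (median 65.3), with a log2 fold change of 0.55 ± 0.090 (SE; adjusted p = 5.72e-05 in edgeR). Hspa8 was higher at 187 to 258 CPM (median 237), by 1.07 ± 0.072 (SE; adjusted p = 4.94e-09), in mice nearly without Gm26825 counts, and by 0.87 with the near-identical genes summed. Bag3 was lower at 4.70 to 7.36 CPM (median 5.72) against 8.09, 11.4, 7.58, 10.2 and 10.3, by -0.79 ± 0.13 (SE; adjusted p = 8.08e-05). Hsp90aa1 (-0.40 ± 0.053 SE, adjusted p = 6.92e-06) and Hspa5 (-0.28 ± 0.087 SE, adjusted p = 0.00963) passed the adjusted p and not the fold limit. Ranges did not overlap for 4 of the 9 genes, these without Hspa5, against 53.4% of all genes. With a length and GC correction Hspa1a (-0.64) and Hspa1b (-0.66) were called lower and Dnajb1 (0.41) was not called, and in the fit blocked on replicate numbers Dnajb1 (0.49) was not called.

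The counts of the gene lists between these groups are given as a description, since 45.1% of all genes were called in this comparison. Hsf4 (1.34, adjusted p = 5.39e-09 in edgeR), Hsf5 (0.97, adjusted p = 0.00271) and Hsf1 (0.62, adjusted p = 2.46e-07) were called higher in the mice with cortex titles, while Hsf2 missed by the fold limit (-0.50, adjusted p = 1.84e-06). Of 41 cytosolic chaperone genes 6 were called higher and 9 lower, among them Hspa2, an HSP70 gene (-1.28, adjusted p = 3.21e-10 in edgeR), and the chaperonin subunit genes Cct5 (-0.89, adjusted p = 2.90e-09) and Cct6a (-0.64, adjusted p = 7.88e-09). Of 25 ER genes 3 were called higher, among them Hyou1 (0.62, adjusted p = 1.33e-08), and 4 lower, among them Pdia3 (-0.76, adjusted p = 5.89e-09), Dnajb9 (-0.93, adjusted p = 1.29e-08) and Manf (-0.71, adjusted p = 1.30e-08). Of 10 mitochondrial chaperone genes 5 were called lower, among them Hspd1, which encodes HSP60 (-0.54, adjusted p = 6.66e-08), and its partner Hspe1 (-0.69, adjusted p = 5.43e-07). Of 6 dentate granule cell markers 5 were lower and of 6 cortical neuron markers 4 higher.

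Inside groups the 9 genes were asked whether they rise and fall together from mouse to mouse. Levels were centred on each group mean (log2 CPM), and each of 36 pairs was tested by 100000 permutations of mice within groups, two-sided, with Benjamini-Hochberg adjustment over the 36. By Pearson's r 20 pairs passed an adjusted p of 0.05, all with positive r, and by Spearman's rho 16 did. The share of pairs of other genes that pass is not given here, so the count cannot be read as particular to these genes. Among 14487 genes ranked by r with Hsph1, Hspa5 was at rank 1. Bag3 was at rank 1155, with 7.97% of genes as high, in the pair of lowest r among the 20 (0.387). Hsph1 and Hspa5 had the highest r, 0.854 (rho 0.796; permutation p = 1e-05, the smallest the permutations can give; adjusted p = 9e-05), and r was 0.754, 0.920 and 0.729 within the first experiment, the cross and the mice with cortex titles. Dnajb1 and Hsph1 had an r of 0.807, and 0.499, 0.923 and 0.698 within the experiments. Hspa1a and Hspa1b, which share near-identical sequence, had 0.816.

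Hspa8 stood apart from the other genes in this respect, with r between -0.383 and 0.0981 and 0 of 8 pairs past the adjusted p. In the mice with cortex titles, where Gm26825 was nearly absent, its r with the other 8 genes ran from 0.0203 (Bag3) to 0.907 (Hsph1; n = 12), in the first experiment from 0.130 to 0.460 (n = 18), and in the cross from -0.528 to 0.0838 (n = 16). Bag3 and Hspb1 went together with an r of 0.598 (adjusted permutation p = 0.00111), and Bag3 had r of -0.0871 with Hsp90aa1. Replicate 9 of the mice labelled FMN2 +/+ APP weighed on these values: without it 16 pairs passed, 15 positive and 1 negative (Hspb1 with Hspa8), the r of Hspa1a with Hspa1b fell to 0.603, that of Hspb1 with Hsph1 from 0.481 to 0.0920, and that of Hsph1 with Hspa5 to 0.767. With the 2 mice farthest from the median of the first gene left out of each pair, r stayed positive in all 20 pairs (0.270 to 0.784). Within the cortex titles it was positive in 16 of the 20.

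**Figure D5:**
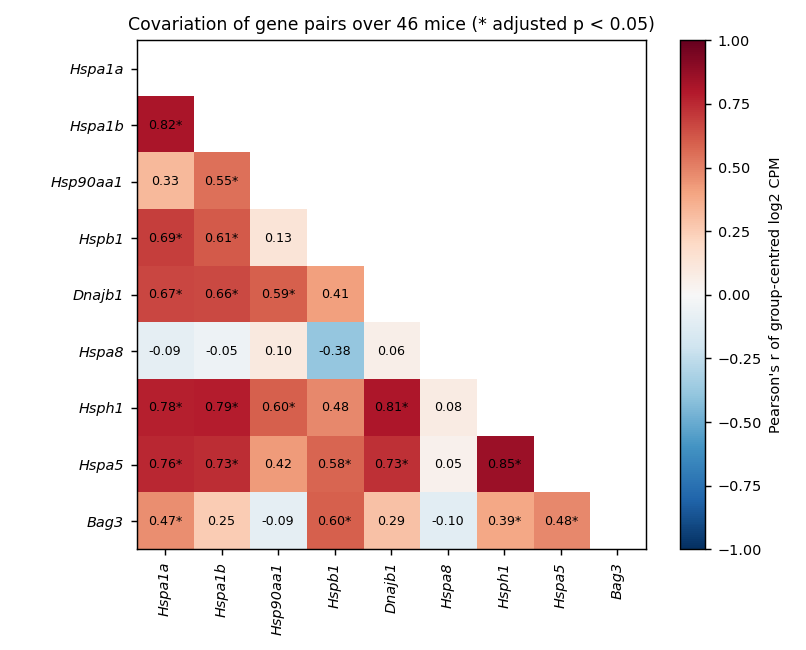
Pearson's r of group-centred log2 CPM for the 36 pairs of genes over 46 mice; an asterisk marks an adjusted permutation p under 0.05. The 20 marked pairs are all positive, and the 8 cells of Hspa8 lie between -0.383 and 0.0981.

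The genes of most similar pattern to each of the 9 were sought among 14487 others by r over the 46 mice, as a description. The values share libraries, depth and base composition, and the median r over all genes was between -0.0279 and 0.0253. The nearest to Hspa5 were the ER genes Pdia4 (0.915), Manf (0.912) and Pdia3 (0.912). The nearest to Hsph1 were Hspa5 (0.854), the HSP40 gene Dnaja1 (0.825) and Xbp1 (0.811), and to Dnajb1 they were Xbp1 (0.812), Hsph1 (0.807) and the ER stress gene Herpud1 (0.788). Hspa1a was nearest to Hspa1b (0.816), Hsph1 (0.775) and Pdia4 (0.767), and Hspa1b to Hspa1a, Hsph1 (0.786) and the HSP40 gene Dnaja4 (0.756).

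Hsp90aa1 was nearest to Rnf11 (0.855), Polr3k (0.850) and St13, a cochaperone of HSP70 (0.848). The nearest to Hspb1 were Serpinh1, the collagen chaperone HSP47 (0.777), Anxa2 (0.698) and Hspa1a (0.688), and to Bag3 they were Igfbp7 (0.669), Itga9 (0.661) and Tmod3 (0.636). The nearest to Hspa8 were Morf4l1 (0.699), Sc5d (0.679) and Pxylp1 (0.660). All of these lie on chromosome 9, as Hspa8 does, where 5.69% of the genes at a mean log2 CPM of at least 0 lie. What this shared chromosome has to do with the differences in Hspa8 between mice was not tested.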

How the data were processed

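RNA was taken from whole tissue, and libraries were made with the TruSeq RNA v2 kit, which does not mark strand. The authors mapped reads with STAR (genome build mm10) and used HTSeq in its intersection-nonempty mode, and the deposited values are whole-number counts per Ensembl gene, not normalized. All 48709 genes were read from 48 files, and repeat runs were summed. Gene names, exons and transcripts came from GENCODE M21 (GRCm38, the same build). The 9 genes, the gene lists, comparisons and limits were chosen with earlier results of these data known, so no list serves as independent evidence.

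Genes passing filterByExpr were fitted on the mice compared with edgeR 4.0.16 (TMM, glmQLFit, glmQLFTest; R 4.3.3), with limits of 0.25 or 0.5 on the log2 scale as the study used. Where labels name no separate cultures or litters, p-values measure the spread between mice as labelled. DESeq2 1.42.0, other size factors, no filter, a length and GC correction, lane, summed near-identical genes, mice left out and a replicate block were the alternatives. The replicate block kept only mice whose number occurs in another group of the fit. Same-numbered mice did not share their deviations (no comparison with r above 0.1 in every pair), so mice were not paired. The fits were tested on simulated data. Near-identical genes came from BLAST+ megablast with the longest coding transcript of each gene. All 9 genes were named in each comparison; from each list at most 4 called genes of smallest p were named, plus the HSF genes, and per gene the 3 most similar genes.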

Additional observations from a re-analysis of the deposited data

Results flagged for a closer look

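In 10 of 63 sets of gene and group the highest mouse lay far from the others by Dixon's criterion, which chance meets in about 1 in 20 groups. Of these, 7 are the same mouse, replicate 9 of those labelled FMN2 +/+ APP: Hspa1a at 9.18 CPM, Hspa1b at 19.6, Hsp90aa1 at 245, Hspb1 at 8.24, Dnajb1 at 98.5, Hsph1 at 666 and Hspa5 at 766 CPM. Replicate 6 of the mice labelled FMN2-/-_APP was far from the others for Hspb1, at 4.76 CPM. Replicate 2 of the 3-month-old Fmn2-/- mice was far for Hspb1, at 3.16, and for Hspa5, at 486 CPM.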

How the results depend on the processing

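Over 1269 alternative fits of single genes 1247 stayed on the same side of the call limits, most of them as genes not called, 4 lost a call and 18 gained one; no called gene changed direction, and 64 values that were not called changed sign. DESeq2 called 1 gene at 3 months and 1 at 8 months between genotypes, 2 with age in wild type and 3 in the cross against 3-month-old mice. Over all genes it called 91, 733, 1719 and 2924 in these comparisons. Without the filter on low counts 1 was called at 8 months and 2 with age in wild type, against 1124 and 1134 over all genes. Leaving out mice gave 0 to 3 calls between genotypes at 8 months and 1 to 2 with age in wild type. With the replicate block (mice sharing a number, which did not pair them) 1 gene was called between the groups of the cross, Hspa5, and 0 in the cross against 3-month-old mice. Both fits left out replicates 8 and 9 of the mice labelled FMN2 +/+ APP, whose numbers occur in no other group fitted. The call of Hspa5 is thus not separate from the call without replicate 9. The block changed no other count of calls by over 1.5 times, though Hspa8 gave way to Hspa5 with age in wild type. Among alternatives chosen after seeing the data, summing Hspa8 with its near-identical genes gave 2 calls in the cross against 3-month-old mice, and leaving out replicate 9 of the mice labelled FMN2 +/+ APP gave 1 between the groups of the cross and 16 pairs of genes past the threshold in place of 20. The causes were not tested. Calls over all genes moved more: 2 to 91 (5 as reported) at 3 months, 3 to 3087 (166) at 8 months, 111 to 304 (129) in the cross, 148 to 3173 (977) with age in wild type, 0.653% to 7.40% of genes (6.36%) with age in Fmn2-/- mice and 1 to 2791 (635) for the interaction. The lowest counts came with the lane as a covariate at 8 months and for the interaction, and without 8-month-old wild-type replicate 1 for age in wild type, and the highest of all 3 without replicate 2, the smallest library. Few reads limit Hspa1a, Hspa1b and Hspb1.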
